A study of Homo sapiens with 16 samples.

Results

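The 38 genes described here encode the subunits of the proteasome and of its activator caps. They were taken by gene symbol from a list of names (PSMA1 to PSMA7, PSMB1 to PSMB10, PSMC1 to PSMC6, PSMD1 to PSMD4, PSMD6 to PSMD8, PSMD11 to PSMD14 and PSME1 to PSME4), and all 38 were found among the 57500 genes of the count tables, each with at least 97 counts in every library. RNA sequencing was done on NCI-H929, an established human myeloma cell line, in 16 libraries of total RNA. In the first experiment, cells exposed for 6 h to 3 nM of p300 degrader 27 (4 libraries, called degrader below) were compared with cells given the vehicle DMSO (4 libraries). In the second, p300 KO cells, in which the gene of the acetyltransferase p300 (EP300) was knocked out (4 libraries), were compared with the control labelled NTC (4 libraries). A degrader is a small molecule that brings its target protein to a ubiquitin ligase, so that the proteasome destroys it. How the knockout was made, whether it is 1 clone, and what NTC abbreviates are not stated in the labels. All 16 libraries carry the same batch number, and the labels do not say whether replicates came from separate cultures, so the p-values below measure the spread between these libraries, which may be technical.

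The proteasome breaks down proteins tagged with ubiquitin. Its 20S core is a barrel of outer alpha rings and inner beta rings, and 3 of the beta subunits carry the cutting sites; the 19S cap, with a ring of ATPases and a lid of non-ATPase subunits, recognises, unfolds and feeds in the substrate. In cells stimulated by interferon, PSMB8, PSMB9 and PSMB10 replace the constitutive catalytic subunits and form the immunoproteasome, which shapes the peptides shown to T cells. Myeloma cells secrete antibody in bulk and depend on proteasome activity, which is why PSMB5, the subunit bound by bortezomib, is a drug target in this disease.

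Total counts ran from 12590308 to 23120350 per library. Degrader 2 (replicate 2 of the degrader group) and p300 KO 1 stood apart, with 64.9% and 47.7% of their counts from mitochondrially encoded genes, against 5.99% to 6.96% in the other degrader libraries, 13.4% to 23.5% in DMSO, 8.91% to 10.3% in NTC and 10.2% to 11.4% in the other p300 KO libraries. The numbers of members called are therefore given with and without them, as 8 or 7 libraries. In each comparison, so are the called members listed by library. Several other genes and counts are given for 7 libraries only. EP300 itself read 99.8, 92.4, 90.9 and 94.4 counts-per-million (CPM) in NTC and 50.1, 38.1, 33.97 and 37.3 CPM in p300 KO, a log2 fold change of -1.25 ± 0.11 (SE; adjusted p = 2.19e-04, edgeR's quasi-likelihood test with Benjamini-Hochberg adjustment, the test behind every adjusted p below). Without p300 KO 1, the log2 fold change of EP300 was -1.37 ± 0.058 (adjusted p = 4.20e-24). The p300 KO libraries were all below NTC, with a transcript still counted in each. A degrader acts on protein, so the EP300 transcript checks nothing in the first experiment. There, each degrader library lay above all DMSO libraries for EP300. Degrader 1 to 4 stood at 49.8, 141, 48.0 and 49.8 CPM. For DMSO 1 to 4 the levels were 35.8, 45.2, 43.9 and 41.4 CPM. Its log2 fold change was 0.79 ± 0.35 (adjusted p = 0.249) over 8 libraries. Without degrader 2 it was 0.24 ± 0.091 (adjusted p = 0.0532), and EP300 was called in neither fit. All 8 plasma cell and myeloma markers were expressed at a median of at least 1 CPM. That level was also reached by 3 of 4 earlier B cell, 3 of 4 NK, 2 of 4 T cell, 2 of 4 epithelial, 1 of 4 monocyte and 0 of 4 fibroblast markers. The summed NK markers ran from 51.4 to 56.9 CPM in DMSO and from 77.1 to 82.1 CPM in NTC, of which NCAM1 averaged 50.6 and 46.7 CPM. The summed T cell markers ran from 36.1 to 40.1 CPM in DMSO and from 22.1 to 24.7 CPM in degrader 1, 3 and 4, with degrader 2 at 12.5 CPM. They ran from 44.2 to 49.4 CPM in NTC and from 35.4 to 37.0 CPM in p300 KO 2, 3 and 4, with p300 KO 1 at 34.2 CPM. The first shift was in CD3E (35.5, 39.04, 35.3 and 38.6 CPM in DMSO libraries 1 to 4, 22.4, 10.4, 20.7 and 20.9 CPM with the degrader) and the second in TRAC; CD3D was at 0 in all 8 libraries of the degrader experiment, and CD2 at or near 0 in every library. Earlier B cell markers summed to 4.48 to 5.91 CPM in DMSO, 5.27 to 7.55 CPM in degrader 1, 3 and 4 and 20.6 CPM in degrader 2, and to 8.82 to 10.3 CPM in NTC, 4.28 to 5.35 CPM in p300 KO 2, 3 and 4 and 7.35 CPM in p300 KO 1. Without degrader 2, 3 of 8 plasma cell markers rose and 2 fell, and 1 of 4 earlier B cell markers rose. In the same fit, 1 of 2 tested T cell and 1 of 3 tested NK markers fell, against 18.2% of all genes higher and 20.3% lower. Without p300 KO 1, 1 of 8 plasma cell markers rose and 5 fell, and 3 of 3 tested earlier B cell, 1 of 2 T cell, 2 of 3 NK, 1 of 1 monocyte and 1 of 3 epithelial markers fell, while 1 of 2 fibroblast markers rose and 1 fell. The shares of all genes in that fit were 19.1% higher and 21.8% lower. No marker was at 0 in every library, and the part of these shifts in the results below was not tested. In bulk RNA, fewer cells of a kind and less RNA per cell cannot be told apart.

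Promoter sequence was available in RefSeq (GRCh38.p14) for 33 of the 38 genes, as 40 windows of 300 bases, 250 before and 50 after the annotated start; PSMA7, PSMB1, PSMB6, PSMB7 and PSMD4 were not among them. The windows below belong to the lid genes PSMD7 and PSMD8 and the ATPase gene PSMC3, which rose with the degrader when degrader 2 was left out (PSMD7 also with it), and to the immunoproteasome genes PSMB9 and PSMB8 (the second of its 2 entries), whose effects differed between the 2 experiments when degrader 2 and p300 KO 1 were left out. They lie at chr16:74296564-74296863 on the plus strand, chr19:38374321-38374620 on the plus strand, chr11:47426390-47426689 on the minus strand, chr6:32853942-32854241 on the plus strand and chr6:32843998-32844297 on the minus strand, in that order. Capitals mark matches, on either strand, to the CCAAT box, the ETS core CCGGAAG, the antioxidant response element core TGACNNNGC (ARE core), the interferon-gamma activated site TTCNNNGAA (GAS) and the core of the interferon-stimulated response element (ISRE core: GAAA, any 2 bases, then GAAA).
PSMD7: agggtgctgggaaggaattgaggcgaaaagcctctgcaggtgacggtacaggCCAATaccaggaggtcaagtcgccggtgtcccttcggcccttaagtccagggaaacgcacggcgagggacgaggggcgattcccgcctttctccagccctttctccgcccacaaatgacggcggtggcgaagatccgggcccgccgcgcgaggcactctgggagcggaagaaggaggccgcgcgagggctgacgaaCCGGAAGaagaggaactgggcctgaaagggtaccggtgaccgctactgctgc
PSMD8: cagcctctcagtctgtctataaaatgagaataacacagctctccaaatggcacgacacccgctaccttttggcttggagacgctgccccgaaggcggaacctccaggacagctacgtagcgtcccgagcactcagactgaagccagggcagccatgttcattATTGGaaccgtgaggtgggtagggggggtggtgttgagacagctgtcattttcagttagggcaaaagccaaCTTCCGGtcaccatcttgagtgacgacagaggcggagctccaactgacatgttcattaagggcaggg
PSMC3: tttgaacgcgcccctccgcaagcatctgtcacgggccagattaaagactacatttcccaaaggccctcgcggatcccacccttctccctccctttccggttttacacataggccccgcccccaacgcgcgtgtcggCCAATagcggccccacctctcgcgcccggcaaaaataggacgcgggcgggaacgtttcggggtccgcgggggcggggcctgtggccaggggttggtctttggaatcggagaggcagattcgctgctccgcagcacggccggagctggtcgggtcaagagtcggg
PSMB9: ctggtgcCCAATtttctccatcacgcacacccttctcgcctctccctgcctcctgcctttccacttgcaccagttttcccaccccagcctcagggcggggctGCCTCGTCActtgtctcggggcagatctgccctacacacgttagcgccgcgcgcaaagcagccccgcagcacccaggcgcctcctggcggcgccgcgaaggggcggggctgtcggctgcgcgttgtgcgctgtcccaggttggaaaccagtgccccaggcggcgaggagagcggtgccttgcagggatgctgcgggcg
PSMB8: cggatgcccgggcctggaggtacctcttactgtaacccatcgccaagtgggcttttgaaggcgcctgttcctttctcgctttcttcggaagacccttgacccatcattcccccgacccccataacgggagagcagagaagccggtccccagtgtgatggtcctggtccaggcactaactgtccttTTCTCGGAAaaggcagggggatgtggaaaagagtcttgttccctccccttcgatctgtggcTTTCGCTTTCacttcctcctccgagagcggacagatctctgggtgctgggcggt

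PSMD7 and PSMD8 each hold a CCAAT box and an ETS core, PSMC3 a CCAAT box, PSMB9 an ARE core and a CCAAT box, and the second entry of PSMB8 a GAS and an ISRE core; its first entry, at chr6:32844630-32844929, holds none of the motifs searched. Over the 40 windows of the proteasome genes, the ETS core was found in 27.5%, against 10.3% of all 35116 promoter windows. The ARE core, the letters read by the NRF1 and NRF2 factors, was also in 27.5%, against 13.3% of all windows. CCAAT was in 42.5% against 34.6%, the GAS in 17.5% against 7.66%, and the ISRE core in 15% against 3.57%; the 6 genes with an ISRE core were PSMA4, PSMB4, PSMB8, PSMB10, PSME1 and PSME2. An E-box (CACGTG) was in 5% against 7.26%, and the cAMP response element TGACGTCA in 0% against 1.85%. The GAS can share letters with the ISRE and ETS cores, and each CACGTG or TGACGTCA match reads the same on both strands. These are matches of letters and show no binding.

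Levels of the subunit genes were compared per kilobase of exon, on CPM scaled over all 16 libraries together. In DMSO, PSMB4, a structural beta subunit, stood highest at 338 ± 10.7 CPM per kilobase (SD, n = 4), above every other member in every DMSO library. PSMA7, an alpha ring subunit, followed at 189 ± 30.99 and overlapped with PSMB3, a structural beta subunit at 161 ± 9.22; PSMD4, a ubiquitin receptor of the cap, was at 156 ± 7.68. The lowest were PSMA2 (5.80 ± 0.484), an alpha subunit, and PSME4 (2.94 ± 0.281), a nuclear activator, so that the mean levels spanned 115-fold. Of the 37 neighbouring pairs in this order, 30 overlapped between libraries. PSMB4 and PSMA7 were also the highest pair in NTC, at 243 ± 6.19 and 200.4 ± 7.10 CPM per kilobase.

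By role, the median DMSO level per kilobase was 105 for PSME1 and PSME2, which form the PA28 activator, 98.2 for the structural beta subunits, 61.5 for the constitutive catalytic subunits, 47.2 for the ATPases, 27.8 for the immunoproteasome subunits, 25.2 for the non-ATPases, 22.7 for the alpha ring and 10.96 for the nuclear activators. Among the cutting subunits, PSMB7 read 98.3 ± 3.21, PSMB6 61.5 ± 12.8, PSMB10 51.6 ± 4.16, PSMB5 32.4 ± 6.36, PSMB8 27.8 ± 3.10 and PSMB9 11.8 ± 1.85 CPM per kilobase (SD, n = 4). The immunoproteasome subunits were thus expressed in untreated NCI-H929 cells, with PSMB8 and PSMB5 overlapping between libraries. The authors' exon lengths cover all isoforms of a gene, which understates the level of genes with long rare exons.

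**Figure D1:**
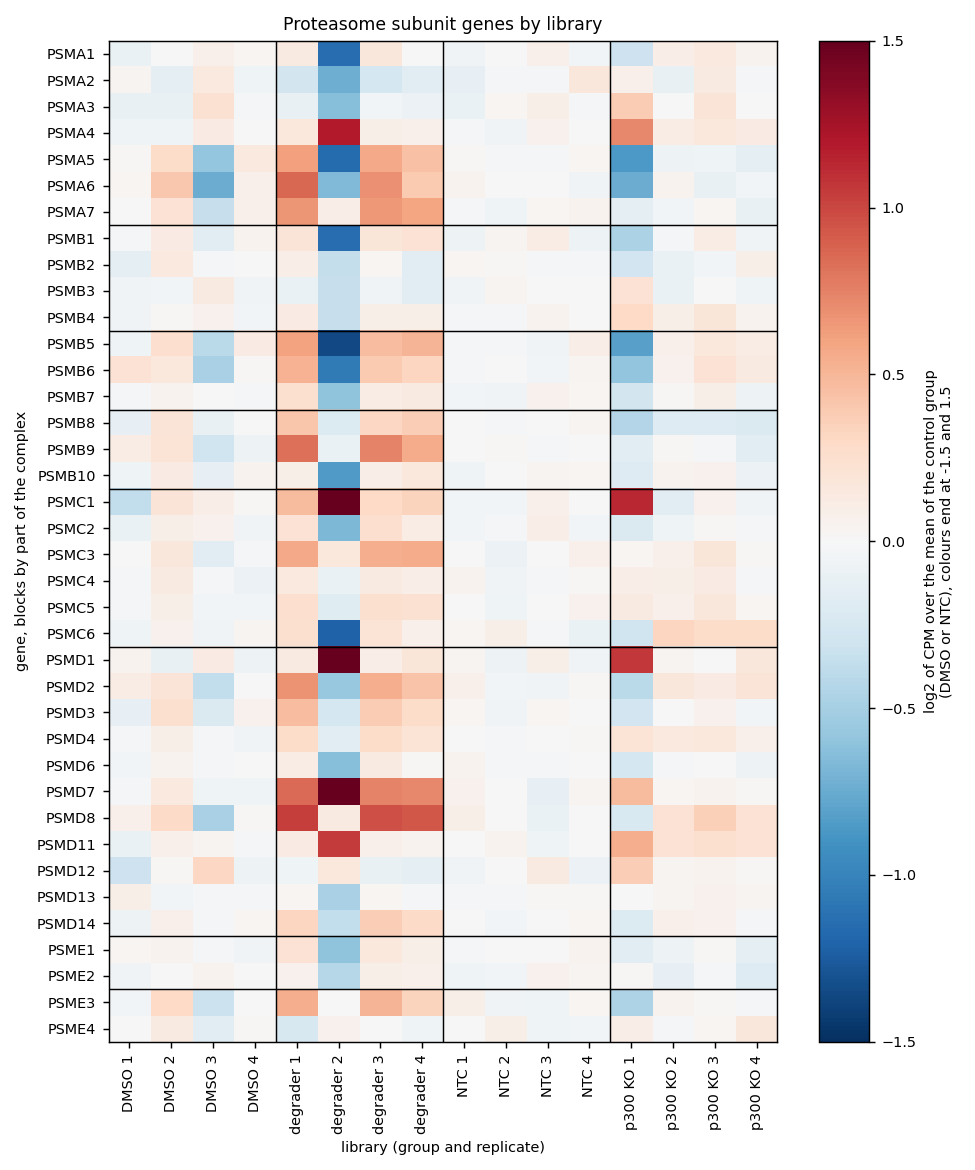
Level of each of the 38 proteasome genes (rows, grouped by role) in each of the 16 libraries (columns), as log2 of CPM over the mean of the control group of the same experiment; the colours end at 1.5 above and below. Degrader 1, 3 and 4 are above the DMSO mean for most catalytic and 19S genes. The alpha ring is mixed: PSMA5 and PSMA7 lie above every DMSO library there, while PSMA2 and PSMA3 lie below the DMSO mean. Degrader 2 and p300 KO 1 stand apart from the other libraries of their groups.

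The first comparison asks what 6 h of exposure to the degrader does to transcripts. Over all 8 libraries, PSMD7 alone rose, which is 2.63% of the 38 genes, against 4.76% called among all 15872 genes tested (1.64% higher, 3.12% lower). Without degrader 2, 17 of the 38 rose (44.7%) and 0 fell, against 18.2% of all genes higher, 20.3% lower and 38.5% in either direction. At an unadjusted p under 0.05, edgeR gave 18 higher and 1 lower, and DESeq2 called 16 of the 17 higher. The share called in either direction was near the background, and the members' calls were all in the higher direction. Their median log2 fold change was 0.18 over 7 libraries, against -0.036 over all genes, and 0.15 against 0.045 over 8. PSMC1 and PSMD7 lay above DMSO in all 4 degrader libraries and PSMA2 below, against 7.6% of all genes not overlapping upward and 9.24% downward; without degrader 2, 22 members lay above and 2 below (PSMA2 and PSMB3), against 21.9% and 22.7% of all genes.

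Summed over the 38 genes, transcript level was 5126 ± 231 CPM (SD, n = 4) in DMSO, with libraries from 4948 to 5462 CPM. It was 6148 ± 173 CPM (SD, n = 3) without degrader 2, from 5964 to 6308 CPM, above every DMSO library. Degrader 2 itself was at 4999 CPM, inside the DMSO range. By role, 6 of 11 non-ATPases, 3 of 6 ATPases, 3 of 7 alpha subunits, 2 of 3 constitutive catalytic subunits, 2 of 3 immunoproteasome subunits and 1 of 2 nuclear activators rose without degrader 2, and 0 of 4 structural beta subunits and 0 of 2 PA28 subunits (0 and 0 also at an unadjusted p under 0.05, edgeR).

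In the lid of the cap, PSMD7, the partner of the deubiquitinase PSMD14, read 79.9, 90.3, 77.9 and 78.1 CPM in DMSO libraries 1 to 4 and 147, 233, 137 and 134 CPM in degrader libraries 1 to 4. Every degrader library was above every DMSO library, and degrader 2 was the highest. Its log2 fold change was 0.99 ± 0.19 (SE; adjusted p = 0.0242) over 8 libraries and 0.76 ± 0.087 (adjusted p = 1.94e-05) over 7. The 8-library call was lost when any 1 of the 4 DMSO libraries, degrader 1 or degrader 4 was left out (adjusted p up to 0.0953), and it held without degrader 2 or degrader 3. An antisense gene on the other strand shares 30.7% of the PSMD7 exon bases, with a median count of 99.5, and the use of strand in counting is not given in the sources used here. PSMD8, another lid subunit, read 98.5, 114, 66.7 and 94.1 CPM in the DMSO libraries and 192, 102, 182 and 178 CPM in the degrader libraries. The degrader libraries other than degrader 2 were all above DMSO, while degrader 2 lay between the DMSO values and DMSO 3 was the lowest of all. The change was 0.97 ± 0.14 on the log2 scale without degrader 2 (adjusted p = 1.18e-04), the largest among the 38 genes, and 0.81 ± 0.23 with it (adjusted p = 0.0861).

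In the base of the cap, PSMD2, the scaffold on which ubiquitin-like domains dock, read 134, 142, 95.9 and 125 CPM in the DMSO libraries and 197, 83.7, 181 and 166 CPM in the degrader libraries. Degrader 2 was below every DMSO library and the other 3 degrader libraries above them. The log2 fold change was 0.54 ± 0.12 (adjusted p = 0.00325) without degrader 2 and 0.34 ± 0.26 (adjusted p = 0.494) with it. PSMC3, an ATPase that helps unfold substrates, read 193, 218, 173 and 192 CPM in the DMSO libraries and 288, 217, 282 and 285 CPM in the degrader libraries. Its degrader 2 value was inside the DMSO range. Without that library it rose by 0.55 ± 0.092 (adjusted p = 4.76e-04), and over all 8 the change was 0.47 ± 0.14 (adjusted p = 0.0979).

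The other cap genes that rose without degrader 2 did so by less. They were the ATPase genes PSMC1 (0.37) and PSMC5 (0.23), the lid gene PSMD3 (0.36), the deubiquitinase gene PSMD14 (0.32) and the ubiquitin receptor gene PSMD4 (0.24), all as log2 fold changes. PSMC1 shares 75.8% of its exon bases with NRDE2 on the other strand, and PSMC5 19.5% with FTSJ3, so their values are uncertain. PSMC2, PSMC4, PSMC6, PSMD1, PSMD6, PSMD11, PSMD12 and PSMD13 did not pass the test, with log2 fold changes from -0.11 to 0.19. Over 8 libraries these genes ran from -0.095 (PSMD13) to 0.89 (PSMD1), and none was called. PSMC1 was then at 1.24 ± 0.50 (adjusted p = 0.202), with degrader 2 at 292 CPM and the other degrader libraries from 64.3 to 72.6 CPM.

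**Figure D2:**
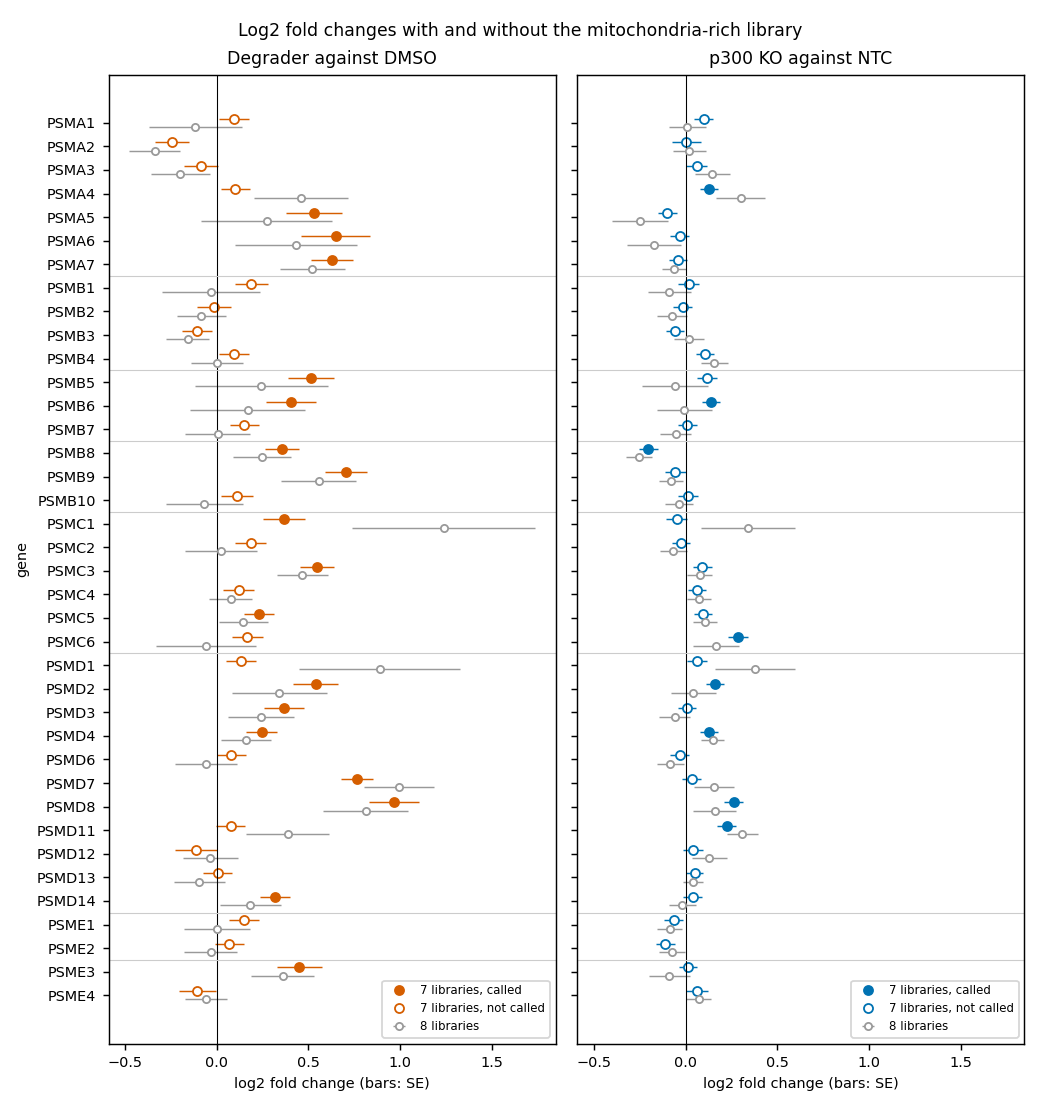
Log2 fold change of each of the 38 genes for degrader against DMSO (left) and p300 KO against NTC (right), with bars for the SE. Coloured points are the fits without degrader 2 or p300 KO 1, filled where the gene was called and open where not, and grey points are the fits on all 8 libraries. The called genes lie above 0 on the left, led by PSMD8 and PSMD7, while on the right the called genes run from PSMB8, at -0.20, to PSMC6, at 0.29.

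In the alpha ring, the gate of the core, PSMA6 read 46.4, 60.6, 27.3 and 48.2 CPM in the DMSO libraries and 83.2, 28.9, 73.6 and 59.7 CPM in the degrader libraries. Degrader 4 lay just below DMSO 2, so these groups overlapped even without degrader 2, and DMSO 3 was the lowest library. It rose by 0.65 ± 0.19 (log2, adjusted p = 0.0151) without degrader 2, a call that DESeq2 did not make, against 0.43 ± 0.33 (adjusted p = 0.504) over 8 libraries. PSMA7 read 297, 347, 236 and 314 CPM in the DMSO libraries and 473, 319.8, 470.1 and 450.4 CPM in the degrader libraries. Degrader 2 lay within the DMSO range and the other 3 were above it. The log2 fold change was 0.63 ± 0.11 (adjusted p = 8.15e-04) without degrader 2 and 0.52 ± 0.18 (adjusted p = 0.137) with it. PSMA5 also rose (0.53), whereas PSMA2 was at -0.24 (adjusted p = 0.0503) and PSMA1, PSMA3 and PSMA4 were between -0.085 and 0.10. Over 8 libraries PSMA4 was at 0.46, PSMA5 at 0.27, PSMA1 at -0.12, PSMA3 at -0.20 and PSMA2 at -0.34, none of them called. The structural beta genes PSMB1, PSMB2, PSMB3 and PSMB4 ran from -0.11 to 0.19 and none passed the test.

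Among the constitutive cutting subunits, PSMB5, which carries the chymotrypsin-like site, read 49.2, 61.6, 39.03 and 56.3 CPM in the DMSO libraries and 78.3, 20.2, 71.1 and 73.2 CPM in the degrader libraries. Degrader 2 was the lowest of the 8 and the other degrader libraries were the 3 highest. PSMB5 rose by 0.51 ± 0.13 (log2, adjusted p = 0.00565) without degrader 2 and was at 0.24 ± 0.36 (adjusted p = 0.754) with it. PSMB6, with the caspase-like site, read 93.3, 89.3, 57.4 and 81.3 CPM and 115, 38.6, 106 and 100.4 CPM, with degrader 2 and DMSO 3 the lowest libraries. It rose by 0.41 ± 0.14 (adjusted p = 0.029) over 7 libraries and was at 0.17 ± 0.31 (adjusted p = 0.808) over 8. PSMB7, with the trypsin-like site, read 155, 165, 159 and 155 CPM and 187, 105, 171 and 173 CPM. Its 3 higher degrader libraries did not overlap DMSO, but the change of 0.15 ± 0.08 did not pass the test (adjusted p = 0.147).

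Of the immunoproteasome subunits, PSMB9, which replaces PSMB6, read 35.5, 37.8, 26.8 and 31.3 CPM in the DMSO libraries and 58.3, 30.6, 55.1 and 48.3 CPM in the degrader libraries. Degrader 2 lay within DMSO and the other 3 above it. It rose by 0.70 ± 0.12 (log2, adjusted p = 4.03e-04) without degrader 2 and was at 0.56 ± 0.21 (adjusted p = 0.167) with it. PSMB8, which replaces PSMB5, read 46.3, 57.8, 46.8 and 50.8 CPM and 67.4, 43.8, 62.5 and 65.2 CPM, with degrader 2 below all DMSO libraries and the others above. Its change was 0.36 ± 0.094 (adjusted p = 0.00846) over 7 libraries and 0.25 ± 0.16 (adjusted p = 0.414) over 8. PSMB8 shares 21.2% of its exon bases with the antisense gene PSMB8-AS1, with a median count of 241.5. PSMB10, which replaces PSMB7, read 82.9, 93.7, 79.6 and 89.3 CPM and 91.5, 47.7, 92.9 and 96.7 CPM, which overlapped. It was at 0.11 ± 0.087 without degrader 2 (adjusted p = 0.335), and shares 34.8% of its exon bases with another gene on the same strand.

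The PA28 activator opens the core without ubiquitin. Its gene PSME1 read 181, 185, 175 and 171 CPM in the DMSO libraries and 206, 117, 199 and 189.6 CPM in the degrader libraries, and PSME2 309, 323, 333 and 319.7 CPM and 336, 239, 341 and 339.6 CPM. In both genes degrader 2 was the lowest library and the other 3 lay above DMSO, but neither change passed the test: 0.15 ± 0.081 (adjusted p = 0.159) for PSME1 and 0.069 ± 0.078 (adjusted p = 0.505) for PSME2 without degrader 2. Of the nuclear activator genes, PSME3 rose by 0.45 ± 0.12 (adjusted p = 0.0101) and PSME4 was at -0.11.

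The mitochondrial share also differed between these libraries. In DMSO libraries 1 to 4 it was 19.7%, 13.4%, 23.5% and 15.5%, and in degrader 1, 3 and 4 it was 5.99%, 6.29% and 6.96%, so it did not overlap between the groups once degrader 2 was left out. DMSO 3, with the highest share, was the lowest DMSO library for 12 of the 17 genes that rose, and for 15 of all 38, and was the highest for 9 of 38. For PSMB5, the DMSO libraries followed the reverse order of the share, from 61.6 CPM at 13.4% to 39.0 CPM at 23.5%. With the log2 share as a covariate and all 8 libraries, 9 of the 38 genes were called higher and 9 lower, against 18.4% and 18.1% of all genes, and the median of the members was -0.015. Those called lower were PSMA1, PSMA2, PSMA3, PSMB1, PSMB5, PSMB10, PSMC6, PSMD6 and PSMD13. Of the 17, 14 kept their direction, PSMA5, PSMB5 and PSMB6 did not, and 6 were called higher; PSMD7 was at 1.08, PSMD8 at 0.60 and PSMB9 at 0.35, all called, and PSMB5 was at -0.29. With the covariate and without degrader 2, 5 of the 17 kept their direction, 0 of the 17 were called higher, and PSMA6 was called lower at -1.20, against 1% of all genes higher and 2.24% lower. PSMD7 was then at 0.39 (adjusted p = 0.346) and PSMD8 at -0.14 (adjusted p = 0.828). In the 7 libraries, the degrader and the lower mitochondrial share cannot be told apart. When DMSO 3 was left out as well as degrader 2, all 17 genes were still called higher.

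**Figure D3:**
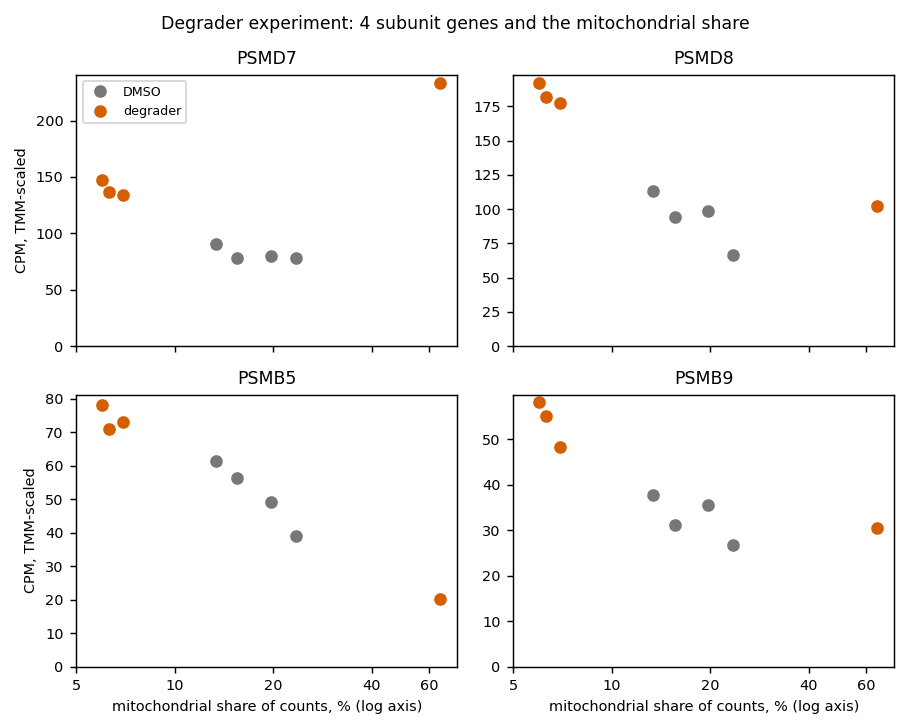
CPM of PSMD7, PSMD8, PSMB5 and PSMB9 (vertical axes) against the mitochondrial share of counts in percent (horizontal log axis) in the 8 libraries of the degrader experiment. Degrader 1, 3 and 4 sit at shares of 5.99% to 6.96% and DMSO at 13.4% to 23.5%, with degrader 2 at 64.9%; PSMD7 is high at both ends, and PSMB5 is highest at the low end and lowest in degrader 2.

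The second comparison asks what knockout of the EP300 gene does. Over all 8 libraries, PSMD11 rose and PSMB8 fell, which is 5.26% of the 38 genes, against 17% of all 17350 genes tested (6.23% higher, 10.7% lower). Without p300 KO 1, 8 of 38 were called (21.1%), 7 higher and PSMB8 lower, against 40.9% of all genes (19.1% higher, 21.8% lower). The share called higher was near the background, and the share called lower, 2.63%, was below it. The median log2 fold change of the members was 0.035 without p300 KO 1, against 6.90e-04 over all genes. In all 8 libraries, 3 members lay above NTC without overlap and 2 below, against 12.5% and 16.1% of all genes; without p300 KO 1, 9 lay above and 2 below, against 19.8% and 22.2%. The 38 genes summed to 5290 ± 69.9 CPM in NTC (SD, n = 4) and 5482 ± 171 CPM in p300 KO libraries 2 to 4 (SD, n = 3). The ranges overlapped.

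PSMB8 was lower in p300 KO, at 54.3, 64.3, 64.3 and 63.1 CPM against 73.1, 72.4, 73.1 and 75.3 CPM in NTC. All p300 KO libraries were below all NTC libraries, with p300 KO 1 the lowest. It fell by 0.26 ± 0.071 on the log2 scale (adjusted p = 0.0373) over 8 libraries and by 0.20 ± 0.052 (adjusted p = 0.0014) without p300 KO 1. PSMB9 read 42.1, 43.01, 41.7 and 42.4 CPM in NTC and 38.01, 42.7, 41.8 and 37.8 CPM in p300 KO, overlapping, with a log2 fold change of -0.056 ± 0.059 (adjusted p = 0.478) without p300 KO 1. PSMB10 read 72.8, 76.3, 78.4 and 78 CPM and 66.6, 79.3, 80.1 and 72 CPM and was at 0.013 ± 0.053 (adjusted p = 0.871). The PA28 genes also overlapped: PSME1 read 182, 185, 185 and 192 CPM and 166, 177, 188 and 168 CPM, and PSME2 218, 222, 239.9 and 235 CPM and 232, 209.8, 226 and 201 CPM. Neither passed the test without p300 KO 1, at -0.065 ± 0.05 (adjusted p = 0.305) and -0.11 ± 0.051 (adjusted p = 0.0761).

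Of the constitutive cutting subunits, PSMB5 read 51.6, 52.2, 50.8 and 56.6 CPM in NTC and 29.98, 55.7, 58.9 and 57.2 CPM in p300 KO. The p300 KO 1 value was the lowest of the 8 and the others overlapped NTC. Without p300 KO 1 the change was 0.12 ± 0.056 (adjusted p = 0.0897). PSMB6 read 94.2, 95.7, 92.7 and 98.3 CPM and 63.1, 99.4, 111 and 105 CPM, with p300 KO 1 below all NTC libraries and the other 3 above. It rose by 0.14 ± 0.051 (adjusted p = 0.0279) without p300 KO 1 and was at -0.0084 ± 0.15 (adjusted p = 0.976) with it. PSMB7 read 156, 154, 168 and 164 CPM and 132, 162, 171 and 152 CPM, overlapping, at 0.0095 ± 0.051 (adjusted p = 0.902).

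In the cap, PSMD11, a lid subunit, read 74.3, 76.6, 71 and 74.3 CPM in NTC and 108, 85.9, 87.7 and 86.1 CPM in p300 KO. Every p300 KO library was above every NTC library, and p300 KO 1 was the highest. It rose by 0.31 ± 0.085 (log2, adjusted p = 0.0359) over 8 libraries and by 0.22 ± 0.051 (adjusted p = 4.50e-04) without p300 KO 1. The 8-library calls of PSMD11 and PSMB8 were lost when any library other than p300 KO 1 was left out, with adjusted p up to 0.107 and 0.105. PSMC6, an ATPase gene, read 59.3, 61.5, 56.9 and 53.9 CPM and 47.2, 72.1, 69.9 and 70.1 CPM, with p300 KO 1 the lowest and the other 3 the highest. It rose by 0.29 ± 0.055 (adjusted p = 3.48e-05) without p300 KO 1 and was at 0.17 ± 0.13 (adjusted p = 0.377) with it. PSMD8 read 123, 115, 108 and 116 CPM and 99.1, 134, 148 and 134 CPM, again with p300 KO 1 lowest and the others highest. PSMD8 rose by 0.26 ± 0.052 (adjusted p = 7.27e-05) without p300 KO 1 and was at 0.16 ± 0.12 (adjusted p = 0.357) with it.

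PSMD2 read 240.1, 221, 219.7 and 230.3 CPM in NTC and 173, 256, 248 and 261 CPM in p300 KO, with p300 KO 1 lowest. PSMD2 rose by 0.16 ± 0.049 (adjusted p = 0.00692) without that library and was at 0.042 ± 0.12 (adjusted p = 0.837) with it. PSMD4 read 479.7, 474, 482 and 485 CPM and 554, 533, 537 and 506 CPM, with all p300 KO libraries above NTC. PSMD4 rose by 0.13 ± 0.047 (adjusted p = 0.0266) without p300 KO 1 and was at 0.15 ± 0.063 (adjusted p = 0.129) with it. PSMA4, an alpha subunit, read 138, 134, 145 and 139 CPM and 229, 149.7, 156 and 151 CPM. All p300 KO libraries were higher, with p300 KO 1 far above the rest. PSMA4 rose by 0.13 ± 0.049 (adjusted p = 0.031) without that library and was at 0.30 ± 0.13 (adjusted p = 0.149) with it. Over 7 libraries, the 7 increases in p300 KO ran from 0.13 to 0.29 on the log2 scale, against 0.23 to 0.97 for the 17 with the degrader. Both ranges hold called genes only. Their SE ran from 0.047 to 0.055 in p300 KO and from 0.080 to 0.19 with the degrader, so smaller changes could be called in p300 KO. In the degrader fit without degrader 2, the mitochondrial share also did not overlap between the groups. In p300 KO 2, 3 and 4 it was 10.2% to 11.4%, against 8.91% to 10.3% in NTC. Only p300 KO 2 (10.22%) lay inside the NTC range, just below NTC 3 (10.27%). With the mitochondrial share as a covariate, 19.1% of all genes were called higher and 21.1% lower over 8 libraries, 8 members were called higher and 1 lower, and 7 of the 8 genes kept their call. Without p300 KO 1 and with the covariate, 9.39% of all genes were called higher and 12.7% lower, and 4 of the 8 were called, PSMC6, PSMD2, PSMD8 and PSMD11.

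The balance of immunoproteasome to constitutive subunits was followed within each library, as the log2 ratio of counts per kilobase, which does not depend on scaling between libraries; it is a description with no test. For PSMB8 to PSMB5, the ratio was -0.27, -0.28, 0.077 and -0.33 in DMSO and -0.40, 0.93, -0.37 and -0.35 in degrader libraries 1 to 4. Degrader 1, 3 and 4 were below every DMSO library, and degrader 2 far above. The mean of degrader 1, 3 and 4 was -0.37 ± 0.025 (SD, n = 3), against -0.20 ± 0.19 (SD, n = 4) in DMSO. This difference was within the DMSO spread, in which DMSO 3 stood above the other DMSO libraries. In NTC the ratio was 0.32, 0.29, 0.34 and 0.23 and in p300 KO 0.67, 0.021, -0.059 and -0.044, so p300 KO 2, 3 and 4 were below NTC and p300 KO 1 above.

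For PSMB9 to PSMB6, the ratio was -2.48, -2.33, -2.18 and -2.46 in DMSO and -2.07, -1.42, -2.02 and -2.14 in degrader libraries, all 4 above DMSO. In NTC it was -2.25, -2.24, -2.24 and -2.30 and in p300 KO -1.82, -2.30, -2.49 and -2.55. There p300 KO 3 and 4 were below every NTC library, and p300 KO 2, at -2.304, was barely below NTC 4, at -2.297. PSMB10 to PSMB7 averaged -0.93 ± 0.093 in DMSO (SD, n = 4), -0.97 ± 0.099 in degrader 1, 3 and 4 (SD, n = 3), -1.12 ± 0.039 in NTC (SD, n = 4) and -1.12 ± 0.031 in p300 KO 2, 3 and 4 (SD, n = 3), differences within the spread. Without degrader 2 and p300 KO 1, the first 2 pairs lay on opposite sides of their controls with the degrader and on the same side in p300 KO. The degrader shift of PSMB8 to PSMB5 was within the DMSO spread.

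**Figure D4:**
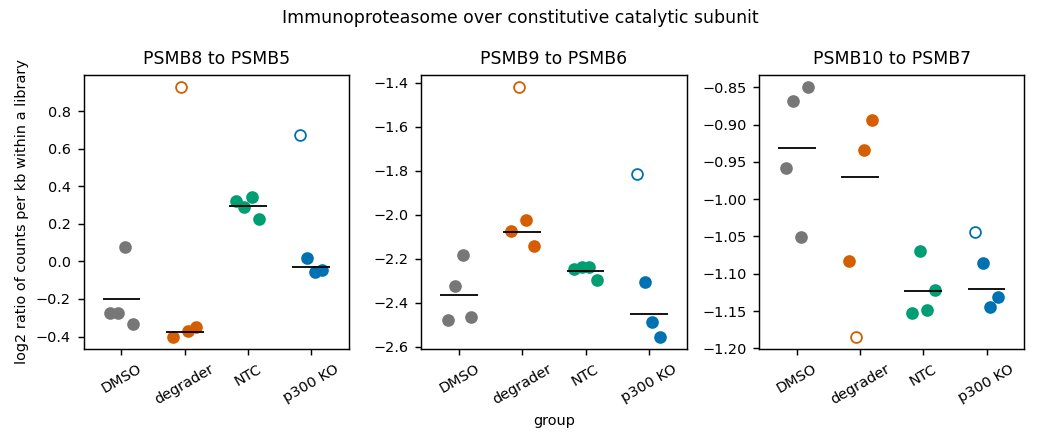
Log2 ratio of counts per kilobase of each immunoproteasome subunit to the constitutive subunit it replaces (3 panels) in each library of the 4 groups. Open circles are degrader 2 and p300 KO 1, and the black line is the mean of the other libraries of the group. Leaving the open circles aside, PSMB9 to PSMB6 is higher with the degrader and lower in p300 KO. PSMB8 to PSMB5 is lower in p300 KO, and with the degrader its mean is lower by less than the DMSO spread. PSMB10 to PSMB7 also shifts by less than the spread.

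The difference between the 2 effects was tested over all 16 libraries, as the p300 KO effect minus the degrader effect. PSMD7 was the 1 member with a difference, at -0.88 ± 0.21 on the log2 scale (adjusted p = 0.0183), against 2.82% of all genes higher and 3.76% lower. Without degrader 2 and p300 KO 1, 14 of the 38 (36.8%) had a lower effect in p300 KO and 0 a higher one, against 15.3% of all genes higher and 16.7% lower. They were PSMA5, PSMA6, PSMA7, PSMB5, PSMB8, PSMB9, PSMC1, PSMC3, PSMD2, PSMD3, PSMD7, PSMD8, PSMD14 and PSME3. The immunoproteasome genes PSMB9 (-0.78 ± 0.14, adjusted p = 1.20e-04) and PSMB8 (-0.59 ± 0.11, adjusted p = 2.72e-04) were among them, as were PSMD7 (-0.76 ± 0.11, adjusted p = 8.82e-06) and PSMD8 (-0.73 ± 0.16, adjusted p = 0.00117). The 2 experiments differ in agent and controls, and a time is given for the degrader only. Without these 2 libraries the mitochondrial share did not overlap between the groups of the first experiment. In the second it overlapped only through p300 KO 2, at 10.22% against 10.27% in NTC 3. The part of the share in this difference was not tested.

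Degrader 2 and p300 KO 1 departed from the other libraries of their groups in much the same genes. Degrader 2 was above all its group's other libraries in 7 members and below them in 31, and p300 KO 1 was above in 11 and below in 21; 6 were above in both and 21 below in both. PSMC1 stood 2.11 and 1.18 above the mean of the others on the log2 scale in degrader 2 and p300 KO 1, PSMD1, the other large scaffold of the base, 1.91 and 0.99, and PSMA4 1.08 and 0.59. PSMB5 stood at -1.87 and -0.93, and PSMA5 at -1.69 and -0.76. Across the 38 genes, the deviations of the 2 libraries had a Pearson correlation of 0.926 and a Spearman rank correlation of 0.863, a description over genes that share these libraries and are not independent. PSMD7 and PSMD11 were among the members above in both, where PSMC1 and PSMD1 stood higher still.

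**Figure D5:**
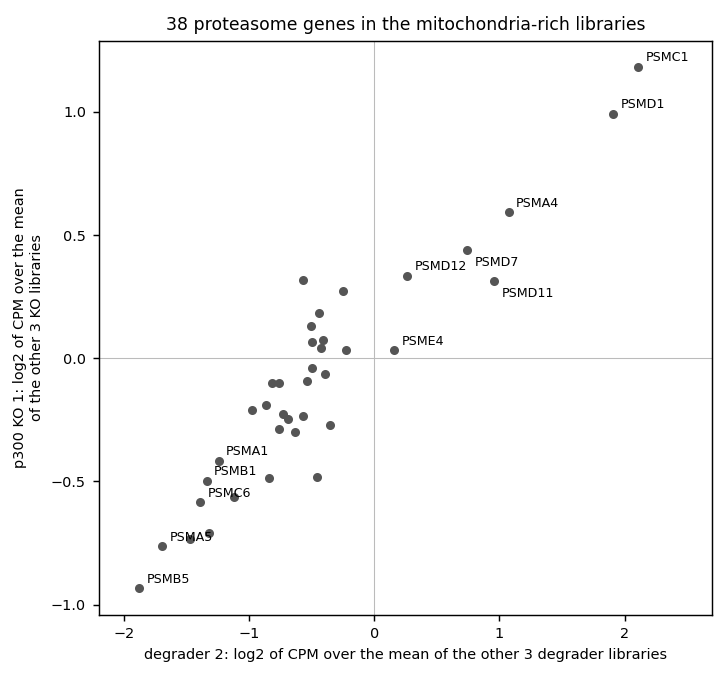
Deviation of degrader 2 (horizontal axis) and of p300 KO 1 (vertical axis) from the mean of the other 3 libraries of its group, in log2 CPM, for each of the 38 genes. The points run from PSMB5, low in both, to PSMC1 and PSMD1, high in both.

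Other genes of the pathway were counted without degrader 2 or p300 KO 1, against the same backgrounds. Of 9 assembly factors, which chaperone the building of the core and cap, 2 rose and 3 fell with the degrader; the core maturation factor POMP rose by 0.28 ± 0.083 (log2, adjusted p = 0.016) and PSMG4 changed by -0.40 ± 0.11 (adjusted p = 0.0101). In p300 KO, 2 rose and 1 fell, PSMG4 by 0.44 on the log2 scale. Of 9 genes of the NRF1 pathway, which raises proteasome genes when proteasome activity is short, 0 rose and 2 fell with the degrader, among them DDI2, the protease that activates NRF1 (-0.41 ± 0.092, adjusted p = 0.00314), and 1 rose and 1 fell in p300 KO. Of 7 tested genes of other 26S parts, PSMF1, an inhibitor of the core, and ADRM1, a ubiquitin receptor, rose with the degrader (0.38 and 0.33), and none was called in p300 KO; PSMA8 and PSMB11 were too low to test.

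Upstream of the proteasome, the ubiquitin gene UBB rose with the degrader (0.67 ± 0.11, adjusted p = 4.12e-04) and was at 0.085 in p300 KO; of the 6 ubiquitin and activating enzyme genes, 1 rose and 1 fell in each comparison. Of 8 shuttle and aggregate factors, which carry ubiquitinated proteins to the proteasome or to autophagy, 4 rose and 0 fell with the degrader and 4 rose and 1 fell in p300 KO. UBQLN2 (0.80 and 0.21) and SQSTM1 (0.54 and 0.20) rose in both. Of 8 regulators and partners of the immunoproteasome, 3 rose and 2 fell with the degrader, and 4 rose and 1 fell in p300 KO. NLRC5, an activator of class I antigen presentation genes, fell in both (-0.68 and -0.30). Of 12 cullin ligase parts, 3 rose and 2 fell with the degrader and 3 rose and 1 fell in p300 KO, where RBX1, the ring subunit of these ligases, fell by 0.68 on the log2 scale. With all 8 libraries, no gene of these lists was called by edgeR with the degrader (9 had an unadjusted p under 0.05), and PAAF1 (0.23) and RBX1 (-0.60) were called in p300 KO.

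Copies of these genes limit the counts. The annotation held 39 pseudogene copies of 15 of the 38 genes, and the copies of PSME2, PSMC1 and PSMD8 had the highest median counts, at 97.5, 25 and 11. Reads shared between a gene and its copy could be split or dropped by the authors' counting, which was not tested.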

How the data were processed

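Reads were trimmed with Trimmomatic 0.36, aligned to GRCh38 with STAR 2.5.2b and counted per gene with featureCounts (Subread 1.5.2), and DESeq2 1.16.1 is also named, per the submitters' processing notes. The deposited values are whole-number counts per gene and library, with exon lengths, as the authors counted them. Whether counting used strand is not given in the sources used here. Ensembl identifiers were matched to symbols for 40907 of 57500 genes.

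Each comparison was fitted on its own 8 libraries with edgeR 4.0.16 (R 4.3.3) quasi-likelihood tests, after its filter on low counts and TMM scaling, with Benjamini-Hochberg adjustment over all genes tested and a call at an adjusted p under 0.05. The difference of effects used all 16 libraries. All 38 members passed the filter in every fit. CPM use TMM-scaled library sizes of the same experiment and are not compared between experiments; levels per kilobase use TMM scaling over all 16 libraries. SE is the log2 fold change over the root of its F value. Alternatives used DESeq2 1.42.0, limma 3.58.1, other scalings, libraries left out and the mitochondrial share as a covariate. Self-tests ran on simulated counts. Errors cover counting and the spread of these libraries only.

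Every member is described. Values in every library are given for EP300, PSMB5 to PSMB10, PSME1, PSME2 and the 6 called members with the largest change per comparison, and of each pathway list up to 4 genes with the smallest p. Some genes of these lists are not reported here. The members and lists were chosen with earlier results of these data known. The fold counted as the same for a count of calls was 1.5. Replicate numbers were not taken to pair the samples.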

Additional observations from a re-analysis of the deposited data

Results flagged for a closer look

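In 21 of the 80 groups of 4 libraries checked, 1 library stood far from the others; degrader 2 was that library in 12 and p300 KO 1 in 8. The 80 groups come from the same 16 libraries and are not independent, so no chance rate applies to this count. Part of the genes checked were also chosen from calls made with and without these 2 libraries. In degrader 2, PSMB5 (20.2 CPM), PSMB10 (47.7 CPM), PSME2 (239 CPM), PSMD8 (102 CPM), PSMA7 (319.8 CPM), PSMC3 (217 CPM) and PSMC6 (24.4 CPM) were far below the other degrader libraries. PSMD7 (233 CPM), PSMD11 (161 CPM), PSMA4 (327 CPM) and EP300 (141 CPM) were far above them. In p300 KO 1, PSMB5 (29.98 CPM), PSMB8 (54.3 CPM), PSMD2 (173 CPM) and PSMC6 (47.2 CPM) were far below the other p300 KO libraries, and PSMD7 (138 CPM), PSMD11 (108 CPM) and PSMA4 (229 CPM) far above. The mitochondrial share, at 64.9% and 47.7%, stood apart in the same libraries. PSMD7 in DMSO 2 (90.3 CPM) was the remaining case. The p300 KO effect differed from the degrader effect over all 16 libraries for PSMD7 (-0.88 on the log2 scale) and for the target transcript EP300 (-2.07).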

How the results depend on the processing

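Counts of calls depended on the libraries and the scaling, and the cause was not tested. For degrader against DMSO, 755 genes and 1 of the 38 members were called over 8 libraries. The counts were 164 and 0 under total count scaling, 394 genes without a filter on low counts, 1796 and 4 with DESeq2, 5807 and 18 with the mitochondrial share as covariate, and from 197 to 6279 genes and 0 to 17 members when each library was left out in turn, the highest without degrader 2. Alternatives chosen after seeing the data gave, without degrader 2, 5983 and 16 with DESeq2, 6697 and 23 under total count scaling, 6387 and 17 with mitochondrial genes removed, and 6509 and 18 without DMSO 3 as well. With the covariate and without degrader 2, 528 genes were called.

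For p300 KO against NTC, 2944 genes and 2 members were called. The counts were 1263 and 0 under total count scaling, 0 members without a filter, 6983 and 9 with the covariate, and from 1542 to 7246 genes and 0 to 8 members with each library left out, the highest without p300 KO 1. Chosen after seeing the data, the fits without p300 KO 1 gave 6319 and 9 with DESeq2, 7129 and 9 under total count scaling, 7244 and 8 with mitochondrial genes removed, and 4 members with the covariate. For the difference of effects, 1189 genes and 1 member were called, against 319 and 0 under total count scaling, 585 genes without a filter, 2095 and 5 with DESeq2, 5901 and 14 without degrader 2 and p300 KO 1 together, and 766 to 4612 genes and 1 to 11 members with each library left out.

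A replicate block gave 24 genes and 0 members for the degrader (PSMD7 at 0.96, adjusted p = 0.106), 1304 and 0 for p300 KO and 306 genes for the difference. Same-numbered samples had correlations of deviations of -0.0238, -0.457, -0.486 and 0.171 in the first experiment and -0.187, 0.0356, -0.187 and -0.0224 in the second. These values cannot decide whether same-numbered samples were handled together, because the libraries far from the others of their groups weigh on the deviations.

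Reversals were counted where either value was called. In the degrader comparison PSMA6 was at -1.20 without degrader 2 with the covariate, PSMB5 at -0.29 with the covariate, and PSMB1 at 0.30 and PSMC6 at 0.28 without degrader 2 under total count scaling. In p300 KO, PSMB5 and PSMB6 were at 0.19 with the covariate, and PSMB6 without p300 KO 1 was at 0.14, at 0.14 with DESeq2, 0.13 under total count scaling and 0.14 with mitochondrial genes removed; with each library left out it ran from -0.091 to 0.14. PSMD7 lost its degrader call under total count scaling (0.75, adjusted p = 0.234). Total count scaling moved the median of all genes from 0.045 to -0.094 in the degrader comparison, from -0.036 to 0.078 without degrader 2, and from 0.025 to -0.14 in p300 KO. Depth limits degrader 2 and p300 KO 1 most, with 4.42 M and 8.66 M counts outside mitochondrial genes.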
